A study of Arabidopsis thaliana with 4 samples.

Results

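Transcripts of 45 Arabidopsis thaliana genes for plastid transcription, plastid protein import and chaperonins were followed in hypocotyls of dark-grown seedlings. The genes were those of the 32538 in the deposited FPKM table whose symbol begins with PTAC, TIC, TOC or CPN followed by a number. The rule itself uses no measured value, but the gene families were picked with earlier results of these data known. They comprised 11 PTAC, 9 TOC, 14 TIC and 11 CPN genes. The same rule sought symbols SIG1 to SIG6 and found 0, because the table writes the sigma factors as SIGA to SIGF, and these are given here as related genes. Among the CPN genes, CPN10 (AT1G14980) and CPN60 (AT3G23990) do not belong to plastids and are described in the deposited table as mitochondrial chaperonins.

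Hypocotyls came from 2 libraries of the shr-2 mutant and 2 libraries of wild type, both in the Col-0 ecotype. The shr-2 mutant carries a defect in SHORT-ROOT (SHR), a GRAS-family transcription factor needed for the ground tissue and its endodermis. Seeds germinated for 24 hours on half-strength MS medium, seedlings then stood in darkness at 22 °C, and hypocotyls were cut from seedlings labelled 5 days old. Groups follow the titles, since another label gives an SCL28 overexpressor as the genotype of both mutant libraries and the root tip as the tissue of all 4. SHR stood at 2.57 and 3.45 FPKM in shr-2 libraries, against 28.4 and 28.9 FPKM in Col-0 libraries. SCL28 stood at 5.81 and 5.57 FPKM in shr-2 and at 5.00 and 5.24 FPKM in Col-0, and was not called (log2 fold change 0.13). Of 8 root-tip markers none passed 0.345 FPKM in any library, and 1 of them, BRN2, was at 0 in all 4. The series calls the replicates biological duplicates without saying whether they came from separate cultures, so p-values measure the spread between these libraries. Replicate libraries correlated across genes at r = 0.981 in shr-2 and 0.984 in Col-0, against 0.900 to 0.911 between genotypes.

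Plastids hold a small genome that is read by a bacterial-type RNA polymerase, whose core is plastid-encoded, and by a phage-type polymerase imported from the cytosol. Sigma factors guide the bacterial-type enzyme to promoters, and a set of nucleus-encoded proteins, many of them first found in the plastid transcriptionally active chromosome (pTAC), is bound to its core and is needed for it to work. Nearly all plastid proteins are made in the cytosol and enter through the TOC complex of the outer envelope and the TIC complex of the inner envelope, and many are then folded by the barrel-shaped chaperonin CPN60 with its lid proteins CPN20 and CPN10. In dark-grown seedlings the plastids of the cotyledons are etioplasts, which turn into chloroplasts when light arrives.

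Most of these genes were higher in shr-2. Of the 45 genes, 43 averaged 1 FPKM or more across libraries and were tested, and 29 of them were higher, 1 was lower and 13 did not pass (limma on log2 of FPKM + 1, Benjamini-Hochberg adjusted p under 0.05 over all 19920 genes tested). Of all tested genes, 27.6% were called, 13.9% higher and 13.7% lower. The median log2 fold change of FPKM + 1 was 0.63 over the 43 genes and 0.01 over all tested genes. A log2 fold change of at least 1 was reached by 8 genes, namely 5 CPN genes, 2 TIC genes and PTAC16, which had the largest. The TIC genes also held the only called decrease. Of 7 tested TOC genes, 2 (28.6%) were called, a share near the 27.6% of all tested genes. Both genes that missed the level for testing encode relatives of the TOC75 channel: TOC75-I is listed at 0 in all 4 libraries, and TOC75-IV stood at 0.582 and 0.452 FPKM in shr-2, against 0.405 and 0.637 FPKM in Col-0. The count of higher genes was 22 without shr-2 replicate 1, 19 without shr-2 replicate 2, 12 without Col-0 replicate 1 and 15 without Col-0 replicate 2. In those fits 10.3%, 8.21%, 4.84% and 5.56% of all genes were called higher. Of the 30 called genes, 12 kept the call whichever library was left out.

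**Figure D1:**
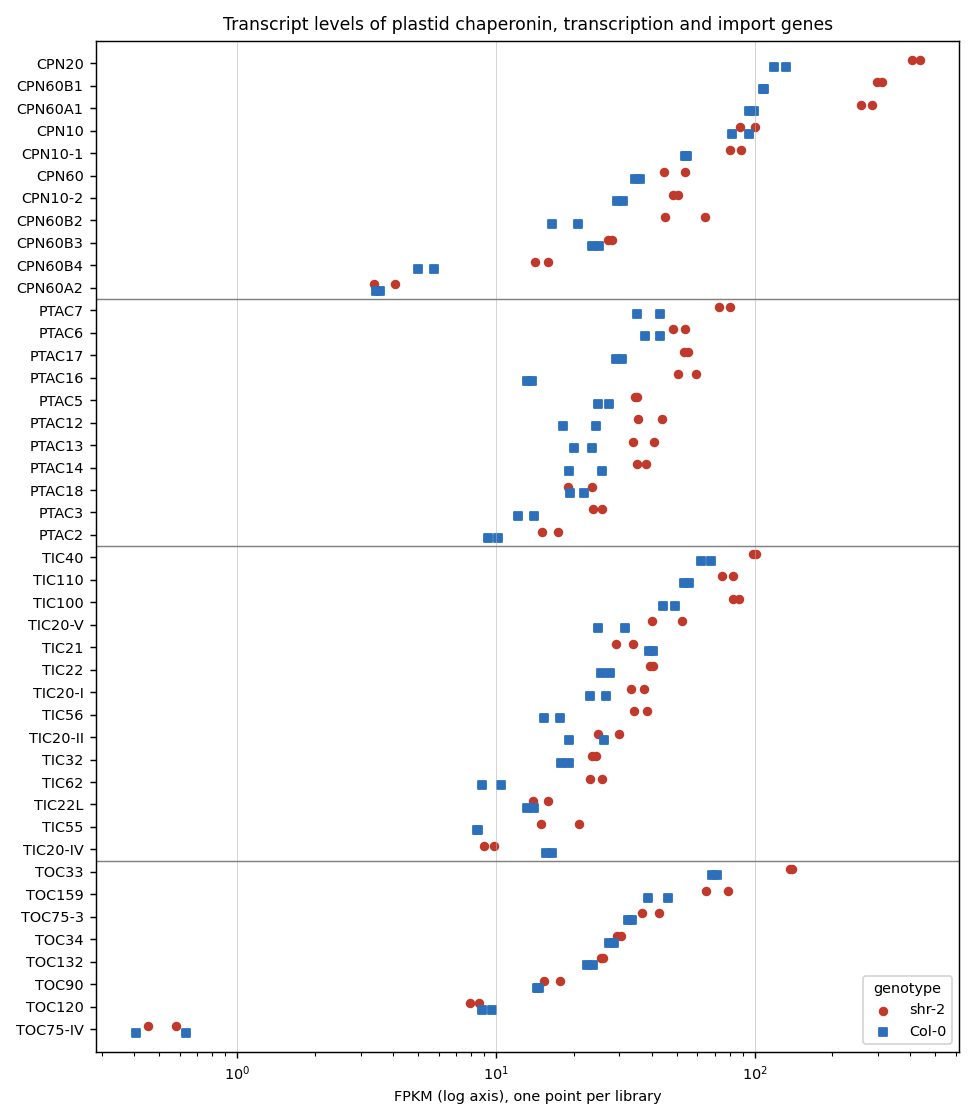
FPKM of 44 genes in each library on a log axis, grouped as CPN, PTAC, TIC and TOC from top to bottom; red circles are the 2 shr-2 libraries and blue squares the 2 Col-0 libraries. CPN20, CPN60B1 and CPN60A1 stand highest, TIC20-IV lies lower in shr-2, and TOC75-I, listed at 0, is not drawn.

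**Figure D2:**
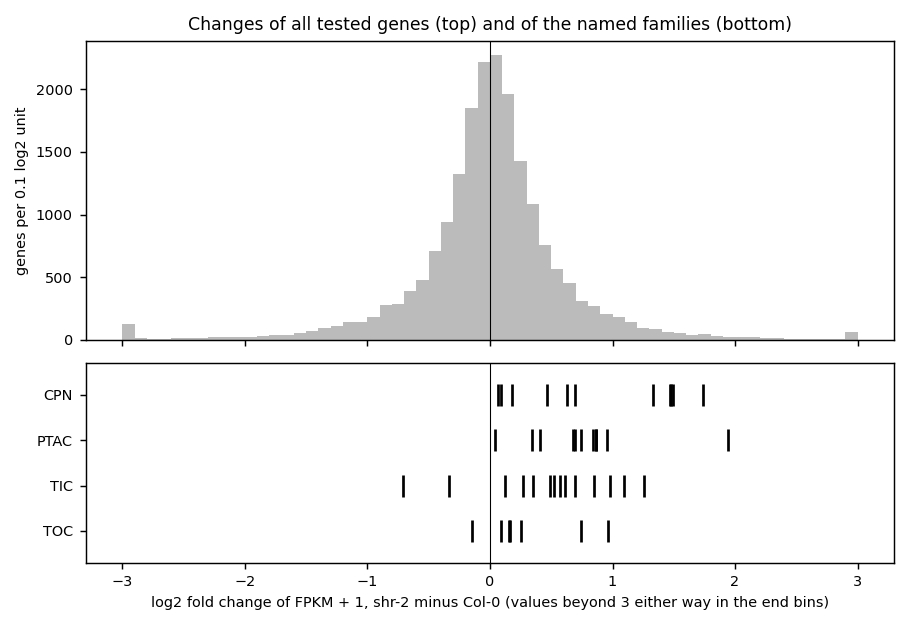
Histogram of the log2 fold change of FPKM + 1, shr-2 minus Col-0, for the 19920 tested genes (top) and one tick per tested gene of each family (bottom). The histogram centres on 0.01 and most ticks of CPN, PTAC and TIC lie to its right.

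The stretches upstream of some of these genes are printed to show what a few called ones share in sequence and what they do not. They are not the full set of the most changed genes, since CPN60B1 and TIC56, for example, are not shown. Each is the 250 bases before the start of the gene model, read in the direction of transcription from TAIR10.1, and capitals mark any match on either strand to 4 motifs of 6 letters. These are the G-box CACGTG, the I-box core GATAAG, the CCAATC element associated with GLK factors, and the site II core TGGGCC, which appears as GGCCCA on the other strand. The 7 shown were chosen after their values were seen, from called genes whose window touches no other gene model. They lie at chr2:11926196-11926445 (CPN60A1, plus strand), chr3:4388965-4389214 (CPN60B2, plus), chr1:9075351-9075600 (CPN60B4, minus), chr5:7014412-7014661 (CPN20, plus), chr3:17228392-17228641 (PTAC16, plus), chr3:6510732-6510981 (TIC62, plus) and chr4:1464217-1464466 (TIC20-IV, plus).
CPN60A1: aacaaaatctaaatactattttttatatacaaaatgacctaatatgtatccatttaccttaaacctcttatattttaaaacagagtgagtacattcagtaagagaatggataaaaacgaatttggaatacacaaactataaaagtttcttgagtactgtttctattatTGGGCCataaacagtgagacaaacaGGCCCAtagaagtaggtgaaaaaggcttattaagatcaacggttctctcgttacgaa
CPN60B2: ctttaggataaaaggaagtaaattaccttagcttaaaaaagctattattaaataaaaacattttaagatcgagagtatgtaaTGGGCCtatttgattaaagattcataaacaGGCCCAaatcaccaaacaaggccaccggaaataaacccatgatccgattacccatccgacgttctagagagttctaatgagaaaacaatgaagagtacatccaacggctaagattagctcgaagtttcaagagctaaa
CPN60B4: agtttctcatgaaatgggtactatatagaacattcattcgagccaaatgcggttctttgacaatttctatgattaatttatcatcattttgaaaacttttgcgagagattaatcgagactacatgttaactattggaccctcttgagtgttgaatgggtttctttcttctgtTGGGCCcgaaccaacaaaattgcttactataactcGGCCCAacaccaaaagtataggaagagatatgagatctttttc
CPN20: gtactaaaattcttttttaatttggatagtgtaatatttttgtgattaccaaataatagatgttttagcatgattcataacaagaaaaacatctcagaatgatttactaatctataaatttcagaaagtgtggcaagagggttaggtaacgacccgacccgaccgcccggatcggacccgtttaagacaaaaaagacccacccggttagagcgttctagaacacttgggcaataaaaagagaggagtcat
PTAC16: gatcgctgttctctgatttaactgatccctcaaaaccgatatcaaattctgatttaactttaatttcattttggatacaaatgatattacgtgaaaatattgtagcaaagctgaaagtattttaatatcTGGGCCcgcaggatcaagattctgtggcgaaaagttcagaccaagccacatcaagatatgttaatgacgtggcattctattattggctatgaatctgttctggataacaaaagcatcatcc
TIC62: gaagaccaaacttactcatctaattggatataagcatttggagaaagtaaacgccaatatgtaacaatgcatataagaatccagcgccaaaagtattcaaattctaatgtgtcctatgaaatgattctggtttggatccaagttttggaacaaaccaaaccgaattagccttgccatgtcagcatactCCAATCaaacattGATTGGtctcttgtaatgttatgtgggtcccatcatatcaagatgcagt
TIC20-IV: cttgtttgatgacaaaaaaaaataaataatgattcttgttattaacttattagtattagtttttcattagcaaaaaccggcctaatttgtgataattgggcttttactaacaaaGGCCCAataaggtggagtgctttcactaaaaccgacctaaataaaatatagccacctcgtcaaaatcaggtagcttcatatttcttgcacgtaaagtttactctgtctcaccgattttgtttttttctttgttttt
CPN60A1, CPN60B2 and CPN60B4, barrel subunits that were all higher in shr-2, each carry 2 site II matches, and PTAC16 carries 1. TIC20-IV, which was lower in shr-2, also carries 1, and CPN20, with the largest increase among the chaperonins, carries none of the 4 motifs. TIC62 carries 2 CCAATC matches.

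Over the 45 upstream windows, 14 (31.1%) held the site II core, against 13.7% of the windows of 27441 protein-coding genes and 16.9% of those of tested genes. The share was 27.6% among the 29 higher genes and 30.8% among the 13 that did not pass. The G-box was in 11.1% of the 45 windows and in 6.48% of all windows. The I-box core was in 6.67% against 12.3%, and the CCAATC element in 6.67% against 10.2%. No test was made of these shares, and a match is not a site shown to be bound. Only 21 of the 45 windows are free of other gene models.

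Of the 9 plastid chaperonin genes, 7 (77.8%) rose and 2 did not pass, where 13.9% of all tested genes rose. CPN60 is a double ring built of alpha and beta subunits, in which CPN60A1 and CPN60B1 are the main forms, and it folds the large subunit of Rubisco among other imported and plastid-made proteins. CPN60A1 (AT2G28000, chromosome 2, 11926446 to 11929488 in TAIR10.1) stood at 259 and 284 FPKM in shr-2 libraries, against 94.8 and 99.7 FPKM in Col-0 libraries. CPN60B1 (AT1G55490, chromosome 1, 20715563 to 20719261) stood at 312 and 298 FPKM in shr-2, against 109 and 108 FPKM in Col-0. Both genes were 2.79-fold and 2.81-fold higher by their mean FPKM, and their genotypes lay far apart. On the scale of log2 FPKM + 1 CPN60A1 changed by 1.47 (SE 0.10, limma adjusted p = 0.00124) and CPN60B1 by 1.48 (SE 0.09, adjusted p = 0.000981).

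CPN20 (AT5G20720, chromosome 5, 7014662 to 7016698), the co-chaperonin made of fused lid domains, was the most abundant of the 45 genes. It stood at 437 and 405 FPKM in shr-2, against 132 and 119 FPKM in Col-0, with a log2 fold change of 1.74 (SE 0.11, limma adjusted p = 0.000994). Only 1.28% of all tested genes had a larger log2 fold change. The small lid proteins moved less. CPN10-1 (AT3G60210) stood at 80.1 and 88.8 FPKM in shr-2 and at 53.7 and 54.9 FPKM in Col-0 (log2 fold change 0.63, limma adjusted p = 0.00986). CPN10-2 (AT2G44650) stood at 50.5 and 48.3 FPKM in shr-2 and at 29.3 and 31.1 FPKM in Col-0 (log2 fold change 0.69, limma adjusted p = 0.00603). CPN20 was thus 3.34 and 2.95 times the sum of both CPN10 genes in the shr-2 libraries, against 1.59 and 1.39 times in the Col-0 libraries. With 2 libraries per genotype no exact permutation test of such a ratio could reach 0.05, and ratios are given as a description.

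Among the minor subunits the beta genes parted. CPN60B2 (AT3G13470), 87.3% identical to CPN60B1 over 76.5% of its transcript, stood at 45.0 and 64.5 FPKM in shr-2, against 16.5 and 20.7 FPKM in Col-0 (log2 fold change 1.49, SE 0.21, limma adjusted p = 0.00735). CPN60B4 (AT1G26230), the subunit needed to fold a protein of the NDH complex, stood at 15.9 and 14.1 FPKM in shr-2, against 5.78 and 4.98 FPKM in Col-0 (log2 fold change 1.33, SE 0.12, limma adjusted p = 0.00252). CPN60B3 (AT5G56500) stood at 28.2 and 27.2 FPKM in shr-2 and at 25.1 and 23.6 FPKM in Col-0, and did not pass (log2 fold change 0.18, 95% interval -0.05 to 0.41). In Col-0 libraries CPN60B3 lay above CPN60B2, and in shr-2 libraries below it. The second alpha gene CPN60A2 (AT5G18820) stood at 4.06 and 3.38 FPKM in shr-2 and at 3.58 and 3.43 FPKM in Col-0 and did not pass (95% interval -0.27 to 0.39). The summed FPKM of the beta genes over that of the alpha genes was 1.53 and 1.40 in shr-2, against 1.59 and 1.53 in Col-0, so the ranges meet. The summed level of all 6 plastid CPN60 genes was 664 and 691 FPKM in shr-2, against 255 and 261 FPKM in Col-0.

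The mitochondrial chaperonins served as a comparison within the same fold. Mitochondrial CPN60 stood at 44.8 and 53.9 FPKM in shr-2, against 34.6 and 36.1 FPKM in Col-0 (log2 fold change 0.46, limma adjusted p = 0.043), and its lid gene CPN10 at 87.8 and 100.4 FPKM, against 81.6 and 95.02 FPKM, overlapping between genotypes (95% interval -0.23 to 0.41). HSP60-2, a second mitochondrial barrel gene, stood at 25.7 and 23.4 FPKM in shr-2 and at 26.2 and 25.9 FPKM in Col-0 and did not pass. HSP60-3A had a log2 fold change of -0.016 and did not pass. The calls of CPN20, CPN60A1, CPN60B1 and CPN60B4 held whichever library was left out. Of the 8 CPN genes called, 4 were called without Col-0 replicate 1. The calls of CPN10-2 and CPN60B2 were lost without Col-0 replicate 1, and those of CPN10-1 and mitochondrial CPN60 were lost without shr-2 replicate 2 or either Col-0 library. CPN20, CPN60B1 and CPN60B2 overlap other gene models on the opposite strand, CPN60B4 and CPN10-2 on both strands and mitochondrial CPN10 on the same strand. The assignment of reads in the overlaps is thus uncertain.

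Of the 11 PTAC genes, 9 (81.8%) rose and 2 did not pass, where 13.9% of all tested genes rose. Log2 fold changes ran from 0.41 to 1.94 among the 9. PTAC16 (AT3G46780, chromosome 3, 17228642 to 17231229), a protein of the pTAC preparation, showed the largest change of all 45 genes. It stood at 50.4 and 59.3 FPKM in shr-2, against 13.8 and 13.2 FPKM in Col-0, 4.07-fold higher by mean FPKM (log2 fold change 1.94, SE 0.11, limma adjusted p = 0.000864). Both Col-0 libraries lay far below both shr-2 libraries, and 0.939% of all tested genes had a larger log2 fold change. PTAC17 (AT1G80480) stood at 53.1 and 55.3 FPKM in shr-2, against 30.6 and 29.2 FPKM in Col-0 (log2 fold change 0.84, limma adjusted p = 0.00351).

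The PTAC genes that encode proteins bound to the polymerase core moved by less than PTAC16. PTAC7 (AT5G24314), one of the small core-bound proteins and the most abundant PTAC transcript, stood at 80.6 and 72.7 FPKM in shr-2, against 43.3 and 35.2 FPKM in Col-0 (log2 fold change 0.95, SE 0.13, limma adjusted p = 0.00737). PTAC3 (AT3G04260), a DNA-binding protein of the complex, stood at 25.6 and 23.8 FPKM in shr-2, against 14.1 and 12.1 FPKM in Col-0 (log2 fold change 0.87, SE 0.11, limma adjusted p = 0.006). Genotypes did not overlap in either gene. PTAC12, also known as HEMERA and needed for phytochrome signalling, had 43.8 and 35.3 FPKM in shr-2, against 24.4 and 18.2 FPKM in Col-0 (log2 fold change 0.87, limma adjusted p = 0.024). PTAC14, a SET-domain protein, had 35.3 and 37.9 FPKM in shr-2 and 19.2 and 25.8 FPKM in Col-0 (log2 fold change 0.69, limma adjusted p = 0.0308). The pentatricopeptide protein PTAC2 had 15.04 and 17.4 FPKM in shr-2 and 9.30 and 10.2 FPKM in Col-0 (log2 fold change 0.68, limma adjusted p = 0.0136). In these 3 genes too both shr-2 libraries lay above both Col-0 libraries. The calls rest on these same values, so such separation adds nothing to them, and its share over all genes was not counted.

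PTAC13, a NusG-like protein, had a log2 fold change of 0.74 and PTAC5 of 0.41. PTAC6, another core-bound protein, stood at 53.9 and 48.5 FPKM in shr-2 and at 43.0 and 37.5 FPKM in Col-0, and its log2 fold change of 0.34 did not pass (limma adjusted p = 0.084, 95% interval 0.05 to 0.63). PTAC18 overlapped between genotypes, at 23.6 and 19.0 FPKM in shr-2 and 21.9 and 19.3 FPKM in Col-0 (95% interval -0.32 to 0.39). The transcript of PTAC18 is 98.4% identical to that of AT2G32650 over 89.0% of its length, so its reads are uncertain. PTAC13 overlaps another gene model on the same strand, and PTAC6, PTAC7, PTAC12, PTAC17 and PTAC18 do so on the opposite strand. The calls of PTAC16, PTAC17, PTAC3 and PTAC7 held whichever library was left out. PTAC5 lost its call in each of the 4 cases. The count of 9 was 5 without shr-2 replicate 1, 6 without shr-2 replicate 2, 4 without Col-0 replicate 1 and 5 without Col-0 replicate 2. PTAC12 and PTAC13 lost it without shr-2 replicate 1 or either Col-0 library, PTAC2 without shr-2 replicate 2 or either Col-0 library, and PTAC14 without either shr-2 library or Col-0 replicate 1.

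Other parts of the plastid transcription machinery carry different symbols in the table. Their counts stand beside 13.9% of all tested genes called higher with all libraries, a share that also fell when a library was left out. Of the 12 polymerase core-associated proteins, PTAC members included, 10 rose and 2 did not pass (median log2 fold change 0.81). FSD3, an iron superoxide dismutase of the complex, stood at 45.0 and 41.9 FPKM in shr-2, against 16.6 and 15.3 FPKM in Col-0 (log2 fold change 1.39, limma adjusted p = 0.00131). Its partner FSD2 stood at 34.4 and 31.8 FPKM in shr-2 and at 12.7 and 15.3 FPKM in Col-0 (log2 fold change 1.19), and PTAC10, listed as PDE312, at 52.2 and 44.3 FPKM in shr-2 and at 20.7 and 18.4 FPKM in Col-0 (log2 fold change 1.26). These genes were named for the smallest adjusted p of the list. Their log2 fold changes exceeded those of the core-bound PTAC genes, and their calls held whichever library was left out. Other core-associated genes without a PTAC symbol did not exceed PTAC7. TRXZ, listed as CITRX, had a log2 fold change of 0.76, FLN1 of 0.53 and MURE of 0.34, and MURE did not pass. The count of 10 was 7 without shr-2 replicate 1, 6 without shr-2 replicate 2, 5 without Col-0 replicate 1 and 7 without Col-0 replicate 2.

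Of the 7 pTAC proteins listed under other symbols, PTAC10 among them, 5 rose and 2 did not pass, and 2 rose without shr-2 replicate 1 or either Col-0 library. CURT1B, also PTAC8, a thylakoid-bending protein, stood at 186 and 210.0 FPKM in shr-2, against 86.5 and 82.7 FPKM in Col-0. VIPP1, also PTAC4, needed for thylakoid membranes, stood at 94.6 and 88.7 FPKM in shr-2, against 64.0 and 55.0 FPKM in Col-0, and lost its call without shr-2 replicate 1 or either Col-0 library.

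Of 6 sigma factors, 4 (66.7%) rose and 2 did not pass, where 13.9% of all tested genes rose. SIGB, also SIG2, stood at 35.3 and 34.2 FPKM in shr-2, against 21.0 and 20.0 FPKM in Col-0 (log2 fold change 0.73, limma adjusted p = 0.00498). SIGF, also SIG6 and like SIG2 needed for early chloroplast development, stood at 37.7 and 34.8 FPKM in shr-2, against 20.7 and 19.9 FPKM in Col-0 (log2 fold change 0.80, limma adjusted p = 0.0045). SIGA, the general factor SIG1, and SIGC had log2 fold changes of 0.59 and 0.53, and their calls were lost with either Col-0 library left out, that of SIGA also without shr-2 replicate 1 and that of SIGC also without shr-2 replicate 2. SIGE, also SIG5, a sigma factor induced by blue light and stress, stood apart between replicates and was singled out after its values were seen. It was at 1.5 and 14.8 FPKM in shr-2, against 0.482 and 1.01 FPKM in Col-0, so shr-2 replicate 2 alone was high. The limma fit did not call it (log2 fold change 1.86, SE 0.86, adjusted p = 0.175), and the authors' deposited table did, with q = 0.000587. The count of 4 was 2 with either Col-0 library left out.

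Of 9 tested entries for other polymerases and accessory factors, 4 (44.4%) rose and 5 did not pass, where 13.9% of all tested genes rose. RHON1, an RNA-binding protein of plastid nucleoids, stood at 55.5 and 51.9 FPKM in shr-2, against 24.2 and 22.4 FPKM in Col-0. FLN2, a fructokinase-like protein of the complex, stood at 24.9 and 23.7 FPKM in shr-2, against 14.6 and 12.7 FPKM in Col-0, and MTERF6 at 30.3 and 29.7 FPKM, against 17.7 and 18.8 FPKM. FLN2 lost its call without Col-0 replicate 2 and MTERF6 without Col-0 replicate 1. The phage-type polymerases did not pass. RPOT3, the plastid form, stood at 14.5 and 13.8 FPKM in shr-2 and at 11.9 and 12.9 FPKM in Col-0 (log2 fold change 0.17). RPOT2, which serves both organelles, stood at 3.92 and 3.44 FPKM in shr-2, against 5.43 and 4.77 FPKM in Col-0 (log2 fold change -0.38, limma adjusted p = 0.0824). The count of 4 was 2 with either Col-0 library left out. Plastid-encoded genes were not analysed here.

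**Figure D3:**
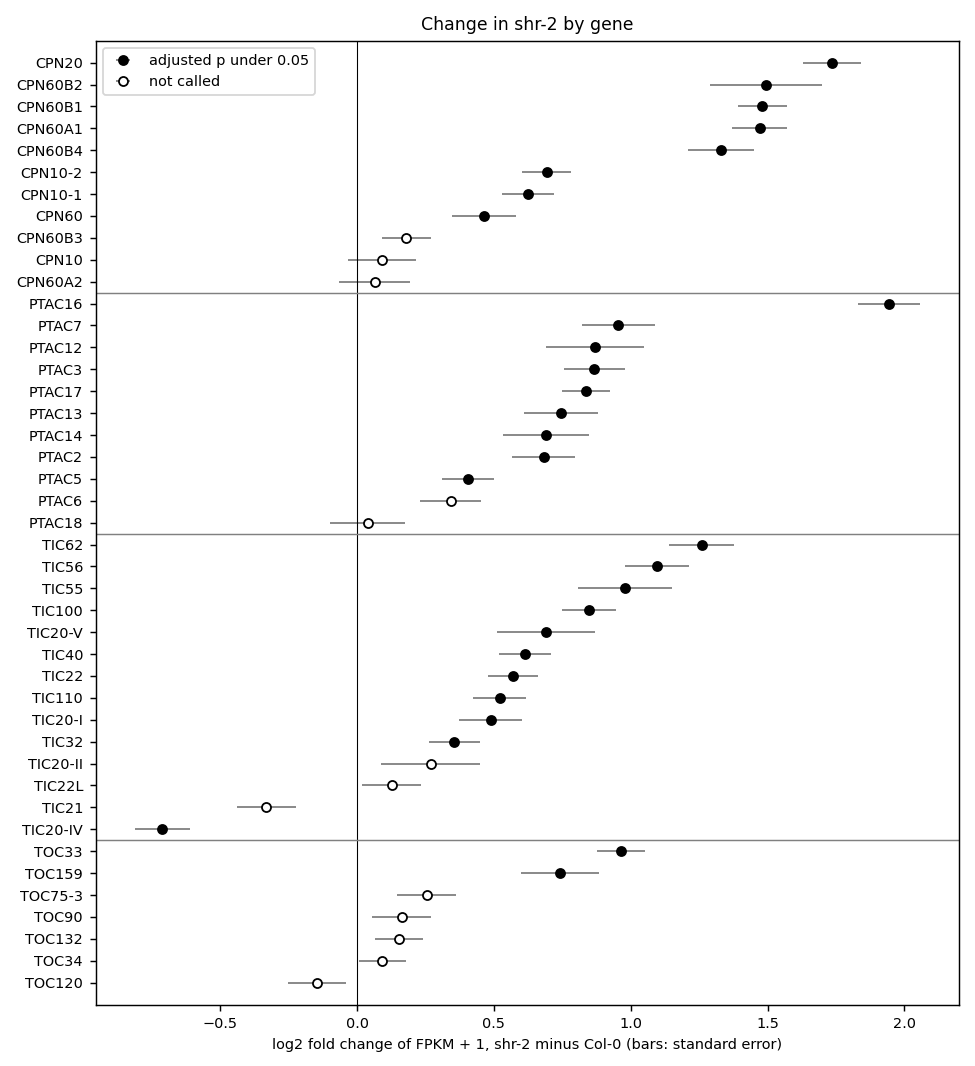
Log2 fold change of FPKM + 1, shr-2 minus Col-0, for each of the 43 tested genes, with its standard error from limma (bars), grouped as CPN, PTAC, TIC and TOC; filled circles are called and open circles are not. PTAC16 and CPN20 lie farthest to the right and TIC20-IV alone is called to the left.

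Receptors of the outer envelope did not move alike. TOC33 and TOC34 are related GTPases that recognise arriving precursors, of which TOC33 is the form that predominates in green tissue. TOC33 (AT1G02280, chromosome 1, 448423 to 450426) stood at 136 and 139 FPKM in shr-2, against 71.7 and 68.4 FPKM in Col-0 (log2 fold change 0.96, SE 0.09, limma adjusted p = 0.00248). TOC34 (AT5G05000) stood at 29.4 and 30.4 FPKM in shr-2, against 27.4 and 28.6 FPKM in Col-0, and did not pass (log2 fold change 0.09, 95% interval -0.13 to 0.32). The ratio of TOC33 to TOC34 within a library was 4.64 and 4.57 in shr-2, against 2.62 and 2.39 in Col-0.

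The large receptor TOC159 (AT4G02510), which mainly takes in photosynthetic precursors, stood at 65.1 and 78.8 FPKM in shr-2, against 46.3 and 38.9 FPKM in Col-0 (log2 fold change 0.74, SE 0.14, limma adjusted p = 0.0195). Its relatives TOC132 and TOC120, which favour housekeeping precursors, did not pass. TOC132 stood at 25.4 and 26.01 FPKM in shr-2 and at 23.7 and 22.4 FPKM in Col-0 (95% interval of the log2 fold change -0.07 to 0.38). TOC120 stood at 8.57 and 7.94 FPKM in shr-2 and at 9.68 and 8.81 FPKM in Col-0 (95% interval -0.42 to 0.13). TOC159 over the sum of TOC132 and TOC120 was 1.91 and 2.32 in shr-2, against 1.39 and 1.24 in Col-0. The difference in change between these relatives was not tested.

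TOC90, a smaller relative of TOC159 (95% interval -0.11 to 0.44), and the channel gene TOC75-3 did not pass either. TOC75-3, the pore of the complex, stood at 36.8 and 42.7 FPKM in shr-2 and at 32.4 and 33.7 FPKM in Col-0 (log2 fold change 0.25, limma adjusted p = 0.146, 95% interval -0.02 to 0.53). The call of TOC33 held whichever library was left out, and that of TOC159 was lost without shr-2 replicate 2 or either Col-0 library. TOC132 and TOC120 are 89.3% identical over 57.0% of the TOC132 transcript. TOC34 and TOC120 overlap another gene model on the same strand, TOC159 and TOC75-3 on the opposite strand and TOC132 on both. The assignment of reads in the overlaps, and so the ratios with TOC34, TOC132 and TOC120, is uncertain.

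Of the 14 TIC genes, 10 (71.4%) rose, 1 fell and 3 did not pass, where 13.9% of all tested genes rose and 13.7% fell. The increases ran from a log2 fold change of 0.36 in TIC32 to 1.26 in TIC62. TIC62 (AT3G18890, chromosome 3, 6510982 to 6515108), which binds ferredoxin-NADP reductase, stood at 23.2 and 25.7 FPKM in shr-2, against 8.86 and 10.4 FPKM in Col-0 (SE 0.12, limma adjusted p = 0.00281). TIC56 (AT5G01590) stood at 38.4 and 34.3 FPKM in shr-2, against 17.7 and 15.3 FPKM in Col-0 (log2 fold change 1.09, SE 0.12, limma adjusted p = 0.00369). TIC100 (AT5G22640) stood at 86.9 and 82.9 FPKM in shr-2, against 49.3 and 44.3 FPKM in Col-0 (log2 fold change 0.85, SE 0.10, limma adjusted p = 0.00449). TIC56 and TIC100 are described as parts of a large inner-envelope complex with TIC20-I, and all of them rose, TIC20-I by the least.

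TIC20-I (AT1G04940) stood at 33.2 and 37.3 FPKM in shr-2, against 23.1 and 26.6 FPKM in Col-0 (log2 fold change 0.49, limma adjusted p = 0.0351). TIC20-IV (AT4G03320, chromosome 4, 1464467 to 1466174), a relative that is thought to serve as an alternative pore, was the gene that fell. It stood at 8.97 and 9.85 FPKM in shr-2, against 16.5 and 15.6 FPKM in Col-0 (log2 fold change -0.71, SE 0.10, limma adjusted p = 0.00772). The ratio of TIC20-I to TIC20-IV within a library was 3.699 and 3.79 in shr-2, against 1.41 and 1.70 in Col-0. Their relatives TIC20-V and TIC20-II had log2 fold changes of 0.69 and 0.27, and that of TIC20-II did not pass, with libraries that overlapped between genotypes (95% interval -0.19 to 0.73).

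On the stromal side, TIC40 (AT5G16620), a co-chaperone of import and the most abundant TIC transcript, stood at 101 and 98.3 FPKM in shr-2, against 67.9 and 62.0 FPKM in Col-0 (log2 fold change 0.61, SE 0.09, limma adjusted p = 0.00987). TIC110 (AT1G06950), a scaffold that binds incoming proteins, stood at 82.7 and 75.0 FPKM in shr-2, against 56.0 and 53.2 FPKM in Col-0 (log2 fold change 0.52, limma adjusted p = 0.0175). TIC55, a Rieske-type protein, stood at 14.9 and 21.0 FPKM in shr-2 and at 8.54 and 8.48 FPKM in Col-0 (log2 fold change 0.98, limma adjusted p = 0.0151). TIC22, found between the envelopes, had a log2 fold change of 0.57, while its relative TIC22L had 0.13 and did not pass (95% interval -0.15 to 0.41). TIC21 (AT2G15290), also known as the iron permease PIC1, had 29.1 and 33.8 FPKM in shr-2, against 39.1 and 40.4 FPKM in Col-0. Its log2 fold change of -0.33 did not pass (limma adjusted p = 0.0808, 95% interval -0.61 to -0.06).

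The calls of TIC62, TIC56 and TIC100 held whichever library was left out, and those of TIC20-I and TIC32 were lost in each of the 4 cases. The count of 10 higher was 7 without shr-2 replicate 1, 6 without shr-2 replicate 2 and 3 with either Col-0 library left out. TIC20-IV, TIC40 and TIC55 lost the call with either Col-0 library left out, TIC22 and TIC20-V also without shr-2 replicate 2, and TIC110 also without shr-2 replicate 1. The transcript of TIC20-I is 95.5% identical over 77.0% of its length to that of AT1G04945, a gene model that overlaps it on the same strand, so reads are uncertain between them.

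**Figure D4:**
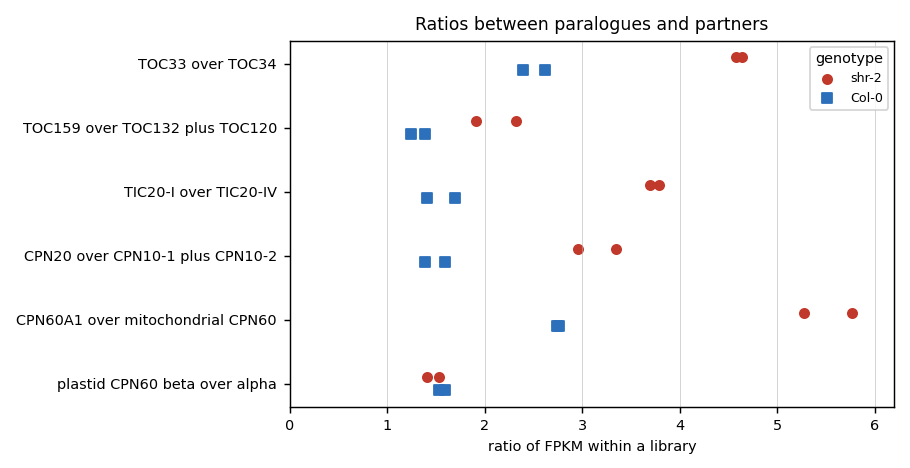
Ratios of FPKM between related or partner genes within each library; red circles are shr-2 and blue squares Col-0, 2 libraries each. The first 5 ratios lie higher in both shr-2 libraries than in both Col-0 libraries, and the ratio of beta to alpha CPN60 lies at 1.40 to 1.53 in shr-2 and 1.53 to 1.59 in Col-0.

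Of 19 partners of import outside the TOC and TIC names, 10 (52.6%) rose, 0 fell and 9 did not pass. Their median log2 fold change was 0.63, and 13.9% of all tested genes were called higher. Of the stromal Hsp70 genes, CPHSC70-1, listed as HSP70-6, stood at 111 and 114 FPKM in shr-2, against 55.6 and 53.6 FPKM in Col-0 (log2 fold change 1.03, limma adjusted p = 0.00206). The plastid Hsp90, listed as HSP90-5, stood at 69.3 and 71.2 FPKM in shr-2, against 40.9 and 38.4 FPKM in Col-0 (log2 fold change 0.81, limma adjusted p = 0.00381). FTSHI4, a protease-like protein of the inner envelope, stood at 22.9 and 21.2 FPKM in shr-2, against 12.0 and 11.2 FPKM in Col-0. The calls of these 3 held whichever library was left out, but the count of 10 was 6 without shr-2 replicate 1 and 3 with either Col-0 library left out.

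Markers of other tissues were read beside these counts. Of 5 leaf and cotyledon identity genes, 1 (20.0%) rose and 4 did not pass, where 13.9% of all tested genes rose. So few genes cannot show whether the share of leaf or cotyledon tissue differed. Their summed level was 182 and 178 FPKM in shr-2, against 160 and 151 FPKM in Col-0, and 0 of them were at 0 in all libraries. FIL, listed as YAB1, stood at 50.5 and 57.9 FPKM in shr-2 and at 34.3 and 40.7 FPKM in Col-0, and lost its call whichever library was left out. The 7 endodermal markers all fell, where 13.7% of all tested genes fell. They summed to 9.84 and 9.97 FPKM in shr-2, against 387 and 486 FPKM in Col-0. SCR made up most of the shr-2 sum and fell less far, to 6.91 and 8.84 FPKM in shr-2, against 23.3 and 24.8 FPKM in Col-0. MYB36, which switches on endodermal barrier genes, was at 0.158 and 0.0662 FPKM in shr-2, against 19.6 and 18.7 FPKM in Col-0, and the barrier proteins CASP4 and CASP5 were under 1 FPKM in shr-2. Seed storage genes summed to 0.617 and 1.09 FPKM in shr-2, against 0.136 and 0.0472 FPKM in Col-0, and 0 of 7 reached 1 FPKM in any library. Without the filter on low values 1 of the 7 was called higher. In such whole organs a change in the number of cells of a type and a change in RNA per cell cannot be told apart. The part of tissue makeup in the increases was not tested.

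The authors' deposited table tested 44 of the 45 genes and called 25, of which 24 were higher and 1 lower in shr-2, where it called 24.8% of all genes with a completed test. All 25 were also called by limma, and limma called 5 more, namely TIC20-I, PTAC13, PTAC5, TIC32 and TIC20-V.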

How the data were processed

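RNA of dark-grown hypocotyls was measured in 2 shr-2 and 2 Col-0 libraries made with a stranded mRNA kit, per the labels' protocols. The submitters' processing notes name TAIR10 as the build, and as tools CASAVA 1.8.2, TopHat2 2.0.13 and, for the comparison, Cuffdiff 2.2.0. The authors deposited FPKM per gene and library. Their comparison table, per the file headers, gives mean FPKM, log2 fold change, fold ratio without sign, test score, p-values and q-values. The sources used here do not say whether reads were counted by strand. FPKM are relative to each library's total, so a change in total RNA is not seen.

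FPKM were converted to log2(FPKM + 1). The 19920 genes that averaged 1 FPKM or more entered one limma 3.58.1 fit in R 4.3.3 (eBayes with trend, 2-sided, Benjamini-Hochberg adjusted p under 0.05), where the residual degrees of freedom were 2 and those of the prior 3.02. Fold changes on this scale understate those of low genes. Loci were matched to TAIR10.1 by gene identifier. All 32538 matched, and for 99.98% the annotated gene lay within the deposited locus. Transcripts were compared with blastn 2.17.0, which found a near copy (90% identity or more over 50% or more of the length) for 2 of the 45. Another gene model overlaps 21 of the 45. Of 121 entries in the lists of related genes and markers, all were in the table, and RefSeq gives the symbol used here for 100. The design foresaw plastid-encoded genes, and these were not analysed here.

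In genes with 1 transcript of 1 to 3 kb, the commonest low FPKM multiplied by length in kb lay between 0.04 and 0.05 in each library and was taken as the worth of 1 fragment. On that estimate the lowest tested gene, CPN60A2, rests on about 159 fragments or more in each library. This limits counting error only.

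The members and lists were chosen with earlier results of these data known, and the sigma factors and the pTAC proteins under other symbols were added after the table was opened, so no p is adjusted over a list. Genes named in full were, in each family, up to 4 called genes of the smallest adjusted p, the most abundant gene and any called gene that went against its family. In each list they were up to 3 called genes of the smallest adjusted p, or the most abundant where none was called. One gene that this rule names is not reported here. Others are named for their role in a family, after their values were seen. Alternatives were another pseudocount (0.1), no filter or a mean of 5 FPKM, median-ratio or quantile scaling, no trend, each library left out and a replicate block.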

Additional observations from a re-analysis of the deposited data

How the results depend on the processing

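With a pseudocount of 0.1, a mean of at least 5 FPKM, median-ratio scaling or quantile normalization, 29 members were called higher and 1 lower in each case. Without a filter on low values 25 were higher, and without the trend 26. CPN60, TIC32 and TIC20-V did not pass under either of these, nor did PTAC14 without the filter. The scalings moved the median log2 fold change of all genes by under 0.1. Leaving out 1 library moved the count of members called higher to 12 to 22 and lower to 0 to 1, that of related genes from 51 higher and 1 lower to 21 to 40 and 0 to 1, and that of all genes from 5503 to 2058 to 3843, with 964 to 2053 higher and 1094 to 1799 lower. Fewer libraries leave 1 residual degree of freedom.

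The replicate numbers come from titles only, and the deviations of same-numbered libraries correlated at 0.305 over 2 pairs, which does not establish pairing. With the replicate number as a block, 8729 genes were called, 4486 higher and 4243 lower. Of the members 32 were then higher and 2 lower, PTAC6, TIC20-II and TOC75-3 joining the higher and TIC21 the lower, and of the related genes 64 were higher and 2 lower.

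Signs that turned belong to genes not called in the main comparison. With 1 library left out, the log2 fold change of CPN10 ranged from -0.017 to 0.20, that of PTAC18 from -0.11 to 0.19, that of CPN60A2 from -0.042 to 0.17, that of HSP60-3A from -0.062 to 0.029 and that of GLK2 from -0.70 to 1.485. The cause was not tested.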

Other observations

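Other nucleus-encoded plastid machinery was read with the same fit, in which 13.9% of all tested genes were higher in shr-2. Of 9 genes for protein export and thylakoid insertion, 8 rose and 1 did not pass. CPSRP54, the signal recognition subunit listed as FFC, stood at 86.3 and 79.7 FPKM in shr-2, against 43.3 and 38.3 FPKM in Col-0 (log2 fold change 1.01, limma adjusted p = 0.00348), THA4, listed as TATA, at 70.7 and 58.9 FPKM, against 32.3 and 24.3 FPKM, and the translocon SCY1 at 93.3 and 111 FPKM, against 52.7 and 57.3 FPKM. SCY1 lost its call with either Col-0 library left out, and the count of 8 was then 3 or 4, while it was 6 when shr-2 replicate 1 and 5 when shr-2 replicate 2 was left out. Of 6 genes for Rubisco assembly factors and Rubisco activase, 5 rose and 1 did not pass. Among those that rose, RBCX1 averaged only 1.28 FPKM over all libraries (limma adjusted p = 0.0497). With a pseudocount of 0.1 the count of 5 was 4. RCA, Rubisco activase, stood at 232 and 287 FPKM in shr-2, against 68.3 and 73.5 FPKM in Col-0 (log2 fold change 1.85, limma adjusted p = 0.00146), and the assembly chaperone BSD2 (AT3G47650) at 140.2 and 156 FPKM in shr-2, against 67.9 and 74.2 FPKM in Col-0.

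Of 11 genes of the plastid Clp protease, 7 rose, 1 fell and 3 did not pass. The subunits CLPR2 (78.8 and 81.9 FPKM in shr-2, 51.0 and 47.5 FPKM in Col-0) and CLPP4 (134 and 141 FPKM in shr-2, 82.9 and 91.0 FPKM in Col-0) were among those that rose. The chaperone CLPD, which is induced by drying and senescence, fell to 35.5 and 39.7 FPKM in shr-2, against 59.2 and 56.9 FPKM in Col-0 (log2 fold change -0.61, limma adjusted p = 0.0113). CLPR2 lost its call without Col-0 replicate 2, CLPP4 with either Col-0 library left out and CLPD without shr-2 replicate 1 or either Col-0 library. The count of 7 was 4 when shr-2 replicate 1 and 2 when shr-2 replicate 2 was left out, 1 without Col-0 replicate 1 and 0 without Col-0 replicate 2.

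Of 8 tested regulators of chloroplast development, 4 rose and 4 did not pass. GUN5, the magnesium chelatase subunit listed as CHLH, stood at 34.2 and 50.1 FPKM in shr-2, against 11.1 and 12.7 FPKM in Col-0, GNC, listed as GATA21, at 46.1 and 39.2 FPKM, against 24.7 and 21.0 FPKM, and PIF1 at 29.0 and 29.5 FPKM, against 18.6 and 16.6 FPKM. GUN5 lost its call without Col-0 replicate 1, and GNC and PIF1 without Col-0 replicate 2. The count of 4 was 7 without shr-2 replicate 1 and 2 with either Col-0 library left out. GLK1, an activator of photosynthesis genes, stood at 11.4 and 10.4 FPKM in shr-2 and at 10.2 and 9.55 FPKM in Col-0. GLK2, HY5 and CGA1 were singled out after their values were seen. GLK2, a relative of GLK1, stood at 14.4 and 69.0 FPKM in shr-2 and at 17.9 and 32.1 FPKM in Col-0. HY5, a transcription factor of light signalling, stood at 56.6 and 127 FPKM in shr-2, against 40.2 and 47.6 FPKM in Col-0. CGA1, listed as GATA22, stood at 0.712 and 2.63 FPKM in shr-2, against 0.381 and 0.493 FPKM in Col-0. Like SIGE, these 3 were highest in shr-2 replicate 2. None of the 4 was called with all libraries. They were singled out after the high value in shr-2 replicate 2 was seen. A fit without shr-2 replicate 1 leaves that value alone for shr-2, so it is no separate test of them.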
